A study of Macaca fascicularis and Macaca mulatta with 24 samples.

Results

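Gene expression was followed over time in the left, non-ischemic cerebral cortex of cynomolgus macaques treated with TatNR2B9c, by setting 3 arrays of cortex taken at 6 h against 3 arrays of cortex taken at 1 h. These 6 arrays were chosen by their labels (treatment, hemisphere and time) out of 24 in the series. All animals had a right-sided middle cerebral artery occlusion (MCAO), an experimental stroke that cuts the blood supply of part of the right cortex. Both groups had TatNR2B9c by vein (2.6 mg/kg) 5 min after MCAO, and differed in the time of sampling, 6 h or 1 h. Each group held 3 animals. The left side was the control hemisphere of animals with a stroke on the right, so no cortex without a stroke in the same animal was compared here, and age and sex were not given in the sources used here. For comparison, the ischemic right cortex of TatNR2B9c animals (3 arrays at 6 h and 3 at 1 h) and the left cortex of placebo animals (3 at 6 h and 3 at 1 h) were also used. The labels do not say whether the cortex of 1 animal was taken at both times.

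In TatNR2B9c, the C-terminal residues of NR2B, a subunit of the NMDA receptor, are fused to Tat, which carries cargo into cells. The peptide was designed to part the NMDA receptor, a glutamate-gated calcium channel, from PSD-95, the scaffold that ties it to neuronal nitric oxide synthase. In cortex, strong glutamate signalling and spreading depolarisation switch on immediate early genes such as FOS, EGR1 and ARC within minutes, and their transcripts usually decay within hours. Heat shock proteins, cytokines and blood cell genes are further classes that respond to injury, surgery or anaesthesia in brain.

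Each array compared cortex RNA, labelled with Cy5, with a common reference RNA labelled with Cy3, and every level below is a log2 ratio of cortex over reference. In Cy5, 97.7%, 76.94% and 53.02% of probes were well above background on 6 h arrays 1, 2 and 3, against 55.5%, 46.1% and 72.6% on 1 h arrays 1, 2 and 3. The means were 75.9% ± 22.4 at 6 h and 58.1% ± 13.4 at 1 h (SD, n = 3 each, two-sided exact permutation p = 0.3). In Cy3 the means were 87.2% ± 13.7 at 6 h and 62.0% ± 8.86 at 1 h, with no overlap of the groups (exact p = 0.1, the smallest that 3 against 3 arrays can give). The log ratios were also more spread at 6 h. Their interquartile range was 1.02, 1.25 and 0.71 on 6 h arrays 1, 2 and 3, against 0.26, 0.58 and 0.57 on the 1 h arrays (exact p = 0.1, adjusted p = 0.25 over 5 such measures). Of 29 neuron markers passing the filter on dim probes, 28 or 29 were well above background on each array. Markers of other cell types were less evenly so. On 1 h array 2, for example, 4 of 17 lymphocyte and 14 of 25 endothelial and mural markers were well above background. The 3 1 h arrays and 6 h array 3 were scanned on 1 day, and 6 h arrays 1 and 2 together on a later day on 1 slide, so that day offers 1 array at 6 h against 3 at 1 h.

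**Figure D1:**
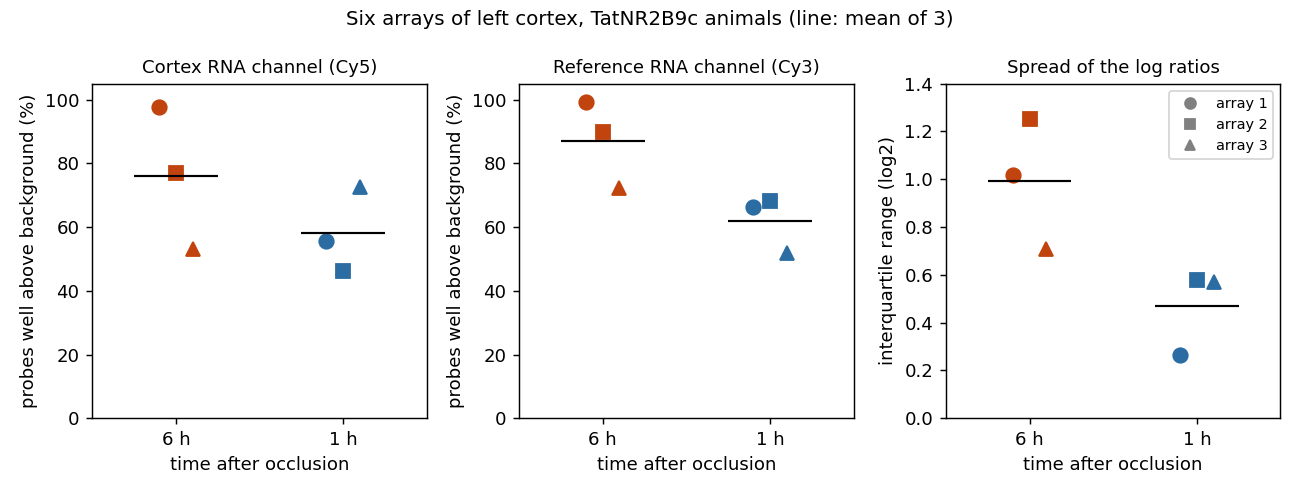
Sensitivity and spread of the 6 arrays of left cortex. Each point is 1 array (shape: array number), with 6 h left of 1 h and a line at the mean of 3. The left and middle panels give the percent of probes well above background in Cy5 and Cy3, and the right panel the interquartile range of the log2 ratios. The 6 h arrays lie above the 1 h arrays in Cy3 and in the spread, and the groups overlap in Cy5.

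No gene passed the test of 6 h against 1 h. By limma, 0 of 15733 genes (0%) passed a Benjamini-Hochberg adjusted p of 0.05, and the smallest adjusted p was 0.165. At an unadjusted p under 0.05 there were 2527 genes (16.1%), 932 higher at 6 h (5.92%) and 1595 lower (10.1%). The values of the 2 times did not overlap for 2770 of 15730 genes with a value on all 6 arrays (17.6%), 1133 of them higher at 6 h (7.2%) and 1637 lower (10.4%). The median difference over all genes was −0.02, with quartiles at −0.29 and 0.20, and 174 genes were higher by over 1 log2 unit and 373 lower by over 1. Tissue was taken in bulk, so fewer cells of a type and less RNA per cell cannot be told apart.

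The count rested on 6 h array 3. Without it, 6 h arrays 1 and 2 differed from the 3 1 h arrays in 747 genes (4.75%), 166 higher (1.06%) and 581 lower (3.69%), and this comparison is also one of scan days. With array 3 alone at 6 h, scanned on the day of the 1 h arrays, 9 genes passed (0.0572%). Of these, 8 were higher (0.0509%) and 1 was lower (0.00636%). Named after their values were seen, COLM, SERTAD2, MMP25, AKAP12, BTG3, NALP12 and PTX3 were among the higher, and INSRR was the lower. PTX3, a secreted pentraxin of acute inflammation, was higher by 0.89. The PTX3 probe was not well above background in Cy5 on any 1 h array. AKAP12, a scaffold for protein kinase A, was higher by 1.58. COLM had the smallest adjusted p (0.00111) with a difference of 1.25. With 1 array at 6 h, its spread was taken to be that of the other groups.

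Among the genes with the highest t values, ARC stood out as a neuronal activity gene. ARC, a synaptic protein whose transcript follows neuronal activity, had log2 ratios of 1.96, 2.28 and 3.03 at 6 h, against 0.40, 0.80 and 0.89 at 1 h. Every 6 h array lay above every 1 h array, and the difference of 1.73 ± 0.40 (SE) is a 3.32-fold higher mean ratio (limma, adjusted p = 0.165). RPH3A, a synaptic vesicle protein that binds Rab3A, had 1.01, 2.33 and 1.13 at 6 h, against 0.28, 0.67 and 0.66 at 1 h. Its difference was 0.95, but in Cy5 alone it was −0.61. IDS, the lysosomal enzyme iduronate 2-sulfatase, had 2.24, 3.48 and 2.17 at 6 h, against 1.35, 1.29 and 1.73 at 1 h, and −0.84 as a difference in Cy5 alone. PTN, a secreted growth factor of neurons and glia, was at 1.72, 3.01 and 1.57 at 6 h, against 0.17, 0.46 and 1.4 at 1 h. Its difference of 1.42 in ratio was 0.09 in Cy5 alone. These 3 genes were highest on 6 h array 2, the array with the widest spread.

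MAML3, a coactivator of Notch signalling, had 0.44, 0.47 and 0.34 at 6 h, against −0.01, 0.07 and 0.05 at 1 h. It lay near 0 at 1 h, where its probe was well above background on 1 of 3 arrays. CNKSR3 was higher by 1.55, with 2.29, 2.75 and 2.07 at 6 h, against 0.53, 1.00 and 0.93 at 1 h. A further probe of CNKSR3 gave −0.08, and Cy5 alone −0.10. Others of the 12 with the highest t values were C9orf80 (0.87), FLJ37078 (0.63), PRAC (1.07), RNF3 (0.83) and ACATE2 (0.66), each with adjusted p = 0.165. In Cy5 alone they differed by 0.52, 2.245, 0.67, 0.07 and 0.002, in the same order. C9orf80 and FLJ37078 were well above background in Cy5 on 1 of 3 arrays at 1 h.

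Among the 12 lowest t values were regulators of transcription and genes of metabolism and division. OVOL1, a zinc finger transcription factor, had −1.75, −1.60 and −0.89 at 6 h, against −0.14, −0.37 and −0.35 at 1 h, a difference of −1.13 ± 0.20 (SE, adjusted p = 0.165). KLF15, a Krüppel-like factor induced by glucocorticoids, had −2.36, −1.60 and −1.32 at 6 h, against −0.10, −0.41 and −0.74 at 1 h. The groups did not overlap in either gene. OVOL1 was well above background in Cy5 on 2 of 3 arrays at 6 h and 1 of 3 at 1 h. KLF15 was so on 3 of 3 and 1 of 3. SIX5, a homeobox factor, had −0.92, −0.65 and −0.92 at 6 h, against −0.11, −0.33 and −0.13 at 1 h, and was well above background on all 6 arrays. Its difference of −0.64 kept its sign under each of 25 alternatives, though some of these cannot change the difference itself. NIT2, an omega-amidase, had −2.59, −2.24 and −1.4 at 6 h, against −0.11, −0.46 and −1.08 at 1 h. Its probe was well above background in Cy5 on 1 of 3 arrays at 1 h. In NIT2 and KLF15 the ratio was lower at 6 h while Cy5 alone was not, by 0.34 and 0.09, and the reference channel alone was higher by 1.19 and 0.64.

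CCNA2, cyclin A2 of dividing cells, had −0.76, −1.07 and −0.45 at 6 h, against 0.05, −0.21 and −0.06 at 1 h, and its difference of −0.68 was −0.57 in Cy5 alone. MRPL47, a protein of the mitochondrial ribosome, had −0.62, −0.27 and −0.29 at 6 h, against 0.26, 0.21 and 0.08 at 1 h, and −1.07 as a difference in Cy5 alone. The kinesin gene KIF25 had a difference of −0.81 in ratio and −1.23 in Cy5 alone. The remaining members of the 12 were ANAC (−1.39, but 0.77 in Cy5 alone), DKFZp547E052 (−0.88), FLJ90709 (−0.70), HT001 (−0.57) and C20orf45 (−1.08). ANAC, FLJ90709 and HT001 were each well above background in Cy5 on 2 of 3 arrays at 6 h and 1 of 3 at 1 h.

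**Figure D2:**
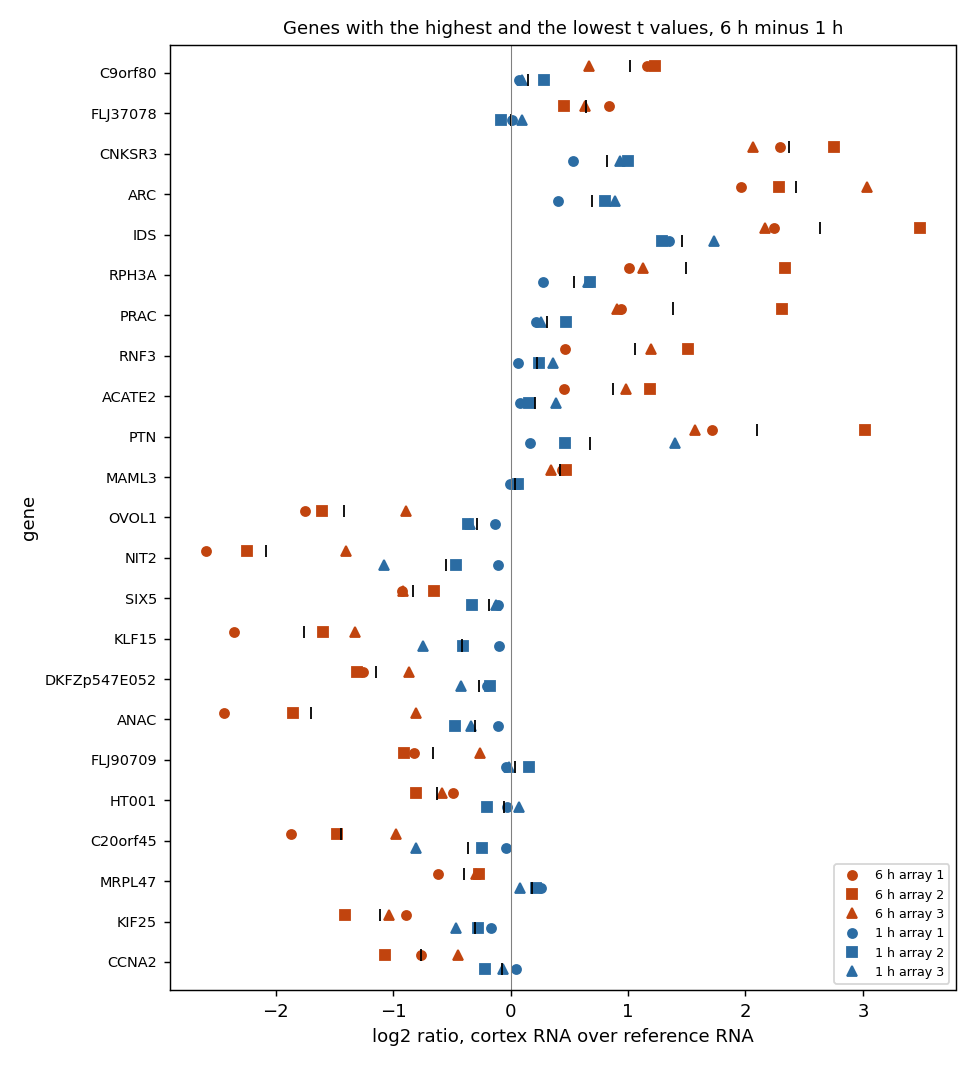
Log2 ratios of cortex over reference RNA (horizontal axis) of 23 of the 24 genes with the highest and lowest t values. The upper 11 genes have higher and the lower 12 lower values at 6 h. In each row the 6 h arrays are drawn above the 1 h arrays, shapes give the array number and short black lines the mean of 3. The 1 h values lie close to 0 in most rows, and 6 h array 2 is the farthest out for IDS, RPH3A, PRAC and PTN.

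Immediate early genes, the transcription factors and synaptic proteins made first after neuronal activity, were higher at 6 h in the median, by 0.32 over 40 of 42 listed genes that could be tested. Of the 40, 34 lay above 0, 8 were higher at an unadjusted p under 0.05 (against 5.92% of all genes) and none was lower, and none passed the adjusted test. The size differed between the 6 h arrays. The median of the 40 genes was 0.22, −0.05 and 0.97 on 6 h arrays 1, 2 and 3, against −0.00, −0.08 and −0.14 on the 1 h arrays. Without 6 h array 3 the median difference was 0.03, without 6 h array 2 it was 0.56, and with array 3 alone, within its scan day, it was 1.14 with 36 of 40 genes above 0.

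EGR1, a zinc finger factor of the first wave, had 1.14, 0.71 and 1.66 at 6 h, against 0.08, 0.23 and 0.17 at 1 h, with no overlap. BDNF, the activity-dependent neurotrophin, had 0.68, 0.86 and 2.02 at 6 h, against 0.15, 0.35 and 0.21 at 1 h. Both were highest on array 3, and both were higher at 6 h under each alternative tried. FOSB had 0.54, 0.71 and 0.31 at 6 h, against 0.04, −0.00 and 0.31 at 1 h. FOS, the partner of JUN in AP-1, had 1.37, −2.98 and 2.94 at 6 h, against −0.80, −0.96 and −0.45 at 1 h. Its highest and its lowest values were thus both at 6 h, and the mean difference was 1.18 ± 1.27 (SE, adjusted p = 0.66). NR4A1, an orphan nuclear receptor, showed 1.74, 0.30 and 2.83 at 6 h, against 0.23, 0.48 and 0.71 at 1 h. JUNB was not well above background on any 1 h array and gave −0.89, −1.09 and −0.64 at 6 h, against −0.38, −0.08 and −2.61 at 1 h.

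A further 3 genes, named after their values were seen, had the same order of arrays. EGR2 had 1.67, 0.59 and 3.1 at 6 h, against 0.22, 0.17 and 0.41 at 1 h. EGR4 had 1.30, 1.09 and 3.58 at 6 h, against 0.19, 0.23 and 0.39 at 1 h. PTGS2, the inducible cyclooxygenase of prostaglandin synthesis, had 1.87, 0.44 and 4.88 at 6 h, against 0.21, 0.42 and 0.52 at 1 h. In all 3 genes 6 h array 3 was the highest and array 1 the next, and in PTGS2 array 2 lay among the 1 h values. Their differences were 1.52, 1.72 and 2.01, with adjusted p between 0.22 and 0.27.

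**Figure D3:**
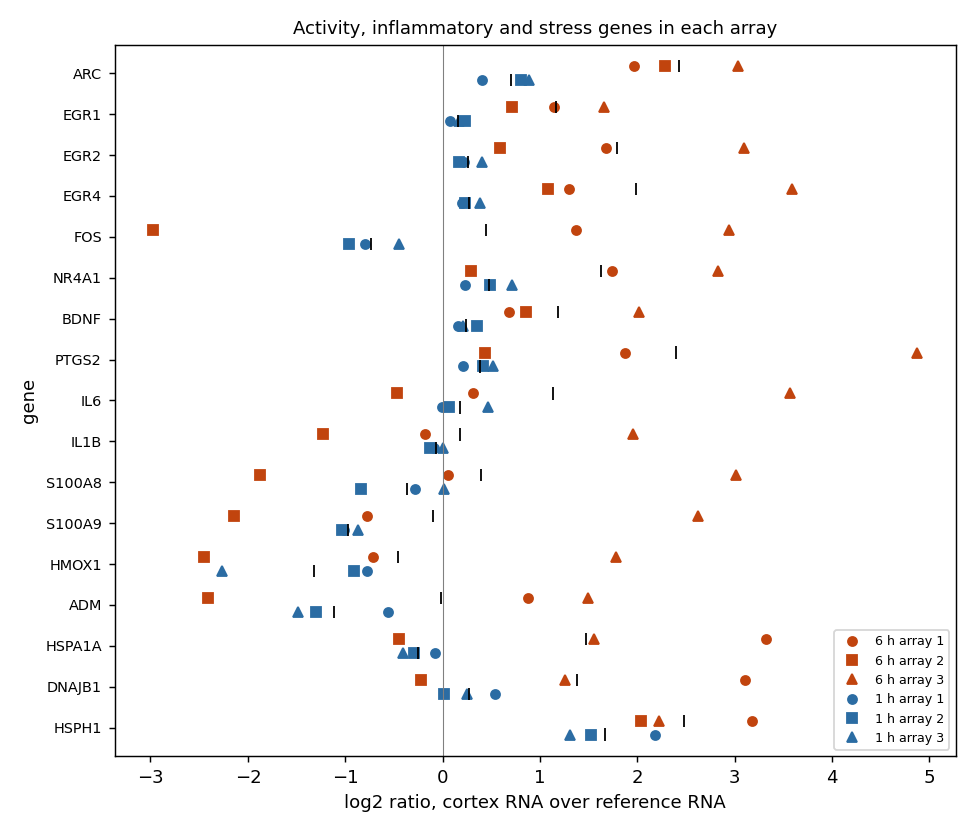
Log2 ratios (horizontal axis) of 17 genes of neuronal activity, inflammation and stress in each array. In each row the 6 h arrays are drawn above the 1 h arrays, shapes give the array number and short black lines the mean of 3. For PTGS2, IL6, IL1B, S100A8 and S100A9, 6 h array 3 stands to the right of all other arrays, whereas HSPA1A and DNAJB1 are highest on 6 h array 1.

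Heat shock genes differed most on another array, 6 h array 1. HSPA1A, the inducible chaperone HSP70, was read by a probe at chr4:31479039-31479098 of rheMac2 (plus strand), shown here because the gene was higher at 6 h in each alternative tried. Capitals mark the only stop codon in the reading frame that holds it, at bases 51 to 53 of 60.
HSPA1A: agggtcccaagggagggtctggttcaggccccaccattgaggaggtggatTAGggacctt
A near-identical copy of the gene, known in human as HSPA1B, could hybridise to the same probe. HSPA1A had log2 ratios of 3.32, −0.45 and 1.56 at 6 h, against −0.07, −0.29 and −0.40 at 1 h. Its difference was 1.73 ± 0.74 (SE, adjusted p = 0.27), and 6 h array 2 lay below all 1 h arrays. DNAJB1, its HSP40 partner, had 3.1, −0.22 and 1.26 at 6 h, against 0.53, 0.02 and 0.26 at 1 h, with the same order of 6 h arrays. HSPH1, a nucleotide exchange factor of HSP70, had 3.17, 2.04 and 2.22 at 6 h, against 2.18, 1.53 and 1.31 at 1 h. The small heat shock proteins HSPB1 (0.60) and CRYAB (0.38) and the constitutive HSPA8 (0.26) overlapped between the times. Over 25 of 30 listed heat shock genes the median was 0.26, with 18 above 0, 3 higher and 2 lower at an unadjusted p under 0.05 (against 5.92% and 10.1% of all genes). Without 6 h array 1 it was 0.07. HSPB2, the member with the smallest p, had a fitted difference below 0 in ratio, with groups that did not overlap, but was not well above background on any 1 h array and gave 0.27 in Cy5 alone.

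Other stress programmes showed little common direction. Genes of the unfolded protein and integrated stress response had a median of −0.02 over 20 genes. CANX, the lectin chaperone calnexin, had −1.58, −0.66 and −0.62 at 6 h, against −0.15, −0.25 and −0.42 at 1 h, while ATF4 (0.64) and DDIT3 (0.34) lay above 0 and XBP1 (−0.10) near it. HSPA5 was not well above background on any 1 h array. The 23 hypoxia-inducible targets had a median of −0.05. SLC2A3, the neuronal glucose transporter GLUT3 and the member with the smallest p, had 0.95, 0.94 and 2.23 at 6 h, against 0.40, 0.68 and 0.33 at 1 h. ADM, the vasodilator adrenomedullin, had 0.88, −2.41 and 1.49 at 6 h, against −0.56, −1.30 and −1.49 at 1 h, and so again ran in opposite directions on 6 h array 2 and the other two. PFKFB3 (0.41), BNIP3 (−0.42) and EGLN3 (−0.27) had adjusted p between 0.36 and 0.46.

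Glucocorticoid-induced genes had a median of 0.10 over 22 genes, yet −0.44 without 6 h array 3. Besides KLF15, DDIT4 had −1.32, −0.81 and −0.33 at 6 h, against −0.11, 0.08 and −0.40 at 1 h, where it was not well above background on any array. FKBP5, a co-chaperone of the glucocorticoid receptor, had −3.14, −2.55 and −1.08 at 6 h, against −1.50, −1.56 and −2.13 at 1 h. TSC22D3 (−0.47) and SGK (−0.65) also overlapped. Clock genes had a median of 0.11 over 19 genes. PER1, a clock gene that also responds to activity, had 0.97, 1.21 and 2.02 at 6 h, against 1.02, 0.79 and 0.83 at 1 h, whereas PER2 (−0.12), ARNTL (0.08), NR1D1 (0.08) and DBP (0.01) lay near 0. BHLHB3, the clock repressor with the smallest p, was higher by 0.60 (adjusted p = 0.28).

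Several inflammatory genes were high on 1 array at 6 h, array 3. It shared its scan day with the 1 h arrays and its slide with 1 h array 3. The cause of its high values was not tested. IL6 had 0.31, −0.47 and 3.57 at 6 h, against −0.00, 0.06 and 0.46 at 1 h. IL1B had −0.18, −1.23 and 1.96 at 6 h, against −0.09, −0.13 and 0.00 at 1 h. In both cytokines 6 h array 3 stood far above the other 5 arrays, and array 2 was the lowest. The neutrophil and macrophage proteins S100A8 and S100A9 had the same form. S100A8 showed 0.06, −1.87 and 3.01 at 6 h, against −0.29, −0.83 and 0.02 at 1 h. S100A9 showed −0.78, −2.15 and 2.62 at 6 h, against −1.01, −1.03 and −0.87 at 1 h. HMOX1, the haem-degrading enzyme heme oxygenase 1, had −0.71, −2.45 and 1.78 at 6 h, against −0.77, −0.91 and −2.27 at 1 h. With 33 genes, the list of cytokines and NF-kB targets had a median of 0.11, of −0.21 without 6 h array 3 and of 0.71 with array 3 alone, and 2 members were higher and 1 lower at an unadjusted p under 0.05 (against 5.92% and 10.1% of all genes).

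HBB, the beta chain of haemoglobin, had 2.90, 1.42 and 3.36 at 6 h, against 0.18, 1.53 and 1.36 at 1 h, a difference of 1.53 (adjusted p = 0.29). Arrays 1 and 3 at 6 h thus lay above all 1 h arrays and array 2 among them. ALAS2, the haem synthesis enzyme of red cell precursors, had −0.84, −0.78 and 0.46 at 6 h, against −0.10, −0.22 and 0.11 at 1 h. The 22 neutrophil and red cell markers had a median of 0.13, −0.21 and 0.36 on 6 h arrays 1, 2 and 3, against −0.04, −0.07 and 0.05 at 1 h, and 22, 20 and 16 of them were well above background at 6 h, against 8, 8 and 20 at 1 h. Their part in the values of the cytokine genes was not tested. CSF3R (0.16) and IL8RB (0.29), receptors of granulocytes, were at 0.34 and 1.09 in Cy5 alone. The median difference of the 22 markers was 0.17, and 0.77 in Cy5 alone.

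Interferon-stimulated genes had a median of −0.23 over 35 genes, which was 0.12 with 6 h array 3 alone, −0.01 without 6 h array 2 and 0.20 in Cy5 alone. IFIH1, a sensor of double-stranded RNA, had the smallest p of the list (adjusted p = 0.165) with −1.73, −1.73 and −0.41 at 6 h, against 0.01, −0.11 and −0.13 at 1 h. Its probe was not well above background in Cy5 on any of the 6 arrays, so no fold is given. ISG15 (0.35), IFIT1 (−0.44), MX1 (−0.03), OAS1 (0.08) and IRF7 (−0.47) had adjusted p between 0.36 and 0.98. Acute phase genes had a median of 0.10 over 26 genes, of −0.30 without 6 h array 3, of −0.17 without 1 h array 3 and of 0.66 with 6 h array 3 alone. CP, the copper protein ceruloplasmin, had −4.02, −4.81 and −2.03 at 6 h, against −0.09, −0.82 and −1.70 at 1 h. CP was not well above background in Cy5 on any 1 h array. In Cy5 alone CP was higher by 0.41 at 6 h, and the reference channel alone was higher by 1.95. SOCS3 (0.19), LCN2 (0.21), SERPINA3 (0.70) and CHI3L1 (−0.02) had adjusted p between 0.78 and 0.95.

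Genes of apoptosis had a median of −0.07 over 30 genes, with 4 lower (against 10.1% of all genes) and none higher at an unadjusted p under 0.05. BAX (0.10), BBC3 (0.22), BCL2 (−0.03) and BCL2L11 (−0.08) overlapped between the times. Antioxidant genes and metallothioneins had a median of −0.10 over 26 genes. MT1B was the member with the smallest p (−1.36, adjusted p = 0.21), and MT2A (0.39), NQO1 (−0.25) and SOD1 (−0.31) had adjusted p between 0.66 and 0.83.

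Genes of the complex that the peptide targets, NMDA receptors with PSD-95, had higher log ratios at 6 h for 25 of 30 genes, with a median of 0.41, which was 0.09 without 6 h array 2. Of the 30, 7 were higher at an unadjusted p under 0.05 (against 5.92% of all genes) and none lower, and 9 had non-overlapping groups, all higher at 6 h (against 7.2% of all genes). GRIN2B, which encodes the NR2B subunit from which the peptide is taken, had 1.09, 2.94 and 0.60 at 6 h, against 0.13, 0.13 and 0.40 at 1 h. Its difference was 1.32 ± 0.52 (SE, adjusted p = 0.24), and 0.21 in Cy5 alone. DLG4, which encodes PSD-95, had 0.76, 1.41 and 1.04 at 6 h, against 0.09, 0.36 and 0.49 at 1 h, and its difference of 0.75 was 0.08 in Cy5 alone. GRIN2A had 2.88, 4.62 and 3.32 at 6 h, against 3.04, 3.04 and 2.69 at 1 h. The obligate subunit GRIN1 showed 2.11, 2.30 and 1.67 at 6 h, against 2.03, 1.76 and 2.04 at 1 h. NOS1, neuronal nitric oxide synthase, had −0.15, 0.26 and 0.14 at 6 h, against 0.03, 0.30 and 0.18 at 1 h. Thus GRIN2B and DLG4 had separate groups, and GRIN1, GRIN2A, NOS1 and CAMK2A (0.27) did not. DAPK1, a death-associated kinase that binds NR2B, had the smallest p of the list, with 0.62, 0.68 and 0.43 at 6 h, against 0.01, 0.03 and 0.17 at 1 h.

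Other synaptic and channel genes had the same direction in the log ratio. Voltage-gated ion channels were higher at 6 h in the median by 0.59, and by 0.28 without 6 h array 2, with 53 of 55 above 0. At an unadjusted p under 0.05, 22 were higher (against 5.92% of all genes) and none lower. KCNA1, the axonal potassium channel Kv1.1, had 2.45, 4.13 and 1.81 at 6 h, against 0.38, 1.53 and 1.02 at 1 h (adjusted p = 0.165). CACNA1A, the P/Q-type calcium channel, had 0.57, 1.72 and 0.75 at 6 h, against 0.14, 0.43 and 0.32 at 1 h. SCN1A (0.95), SCN8A (0.68) and KCNA2 (0.32) were highest on 6 h array 2 in each case. Without 6 h array 3, 4 of the 55 genes passed, all higher (CACNA1C, CACNB4, KCNA1 and KCNA2, named by that result), against 1.06% of all genes.

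AMPA, kainate and metabotropic glutamate receptors had a median of 0.64, and of 0.20 without 6 h array 2, with 19 of 21 above 0. At an unadjusted p under 0.05, 5 were higher (against 5.92% of all genes). GRIK2, a kainate receptor subunit, had 0.93, 1.97 and 0.66 at 6 h, against 0.22, 0.40 and 0.38 at 1 h, while GRIA1 (0.25), GRIA2 (0.49) and GRM5 (0.26) overlapped. GABA receptor and interneuron genes had a median of 0.56, and of 0.17 without 6 h array 2, with 26 of 31 above 0. At that p, 4 were higher and 2 lower (against 5.92% and 10.1% of all genes). CRH, the peptide of some interneurons, had 1.28, 3.20 and 2.44 at 6 h, against 0.61, 1.4 and 0.96 at 1 h. GAD1 (0.68), NPY (0.76), SST (0.12) and PVALB (0.05) had adjusted p between 0.42 and 0.94. Of 32 presynaptic genes 30 were above 0, with a median of 0.46, and of 0.24 without 6 h array 2. At that p, 9 were higher and 1 lower (against 5.92% and 10.1%). CPLX1, a complexin of vesicle release, had 2.20, 2.62 and 1.78 at 6 h, against 1.32, 1.18 and 0.87 at 1 h. SYN1 (0.90) and SYP (0.80) also had separate groups, and SYT1 (0.35), SNAP25 (−0.16) and SLC17A7 (0.35) did not. Neurotrophic factors and their receptors had a median of 0.11 over 24 genes. GDNF, the list's member with the smallest p, was at −0.24, −0.55 and −0.33 at 6 h, against 0.00, 0.08 and −0.03 at 1 h, where it was not well above background in Cy5 on any array, and NTRK2 (0.54), NTRK3 (0.44), NTF3 (−0.13) and VGF (0.09) overlapped.

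The direction of the neuronal and synaptic lists depended on how the difference was measured, and that of the immediate early genes did not. In Cy5 alone, quantile-normalised between arrays, the medians were −0.08 for the NMDA list, −0.15 for ion channels, −0.20 for AMPA and related receptors, −0.46 for GABA and interneuron genes and −0.10 for presynaptic genes. With the software's processed signals they were −0.01, −0.08, −0.19, −0.43 and 0.08, in the same order of lists. With the arrays scaled to equal spread they were −0.17, −0.04, −0.15, −0.35 and −0.95. Immediate early genes stayed above 0 with 0.51 in Cy5 alone, 0.54 with processed signals and 0.70 at equal spread, with 31 of 40 genes above 0 in Cy5 alone. Each of these measures included 6 h array 3. Without that array their median log ratio difference was 0.03, with 21 of 40 genes above 0. Within the scan day all 5 synaptic lists lay between 0.21 and 0.35. Median centring in place of loess, which put the median of all genes at −0.35, gave 0.08 for immediate early genes and −0.01 for the NMDA list.

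**Figure D4:**
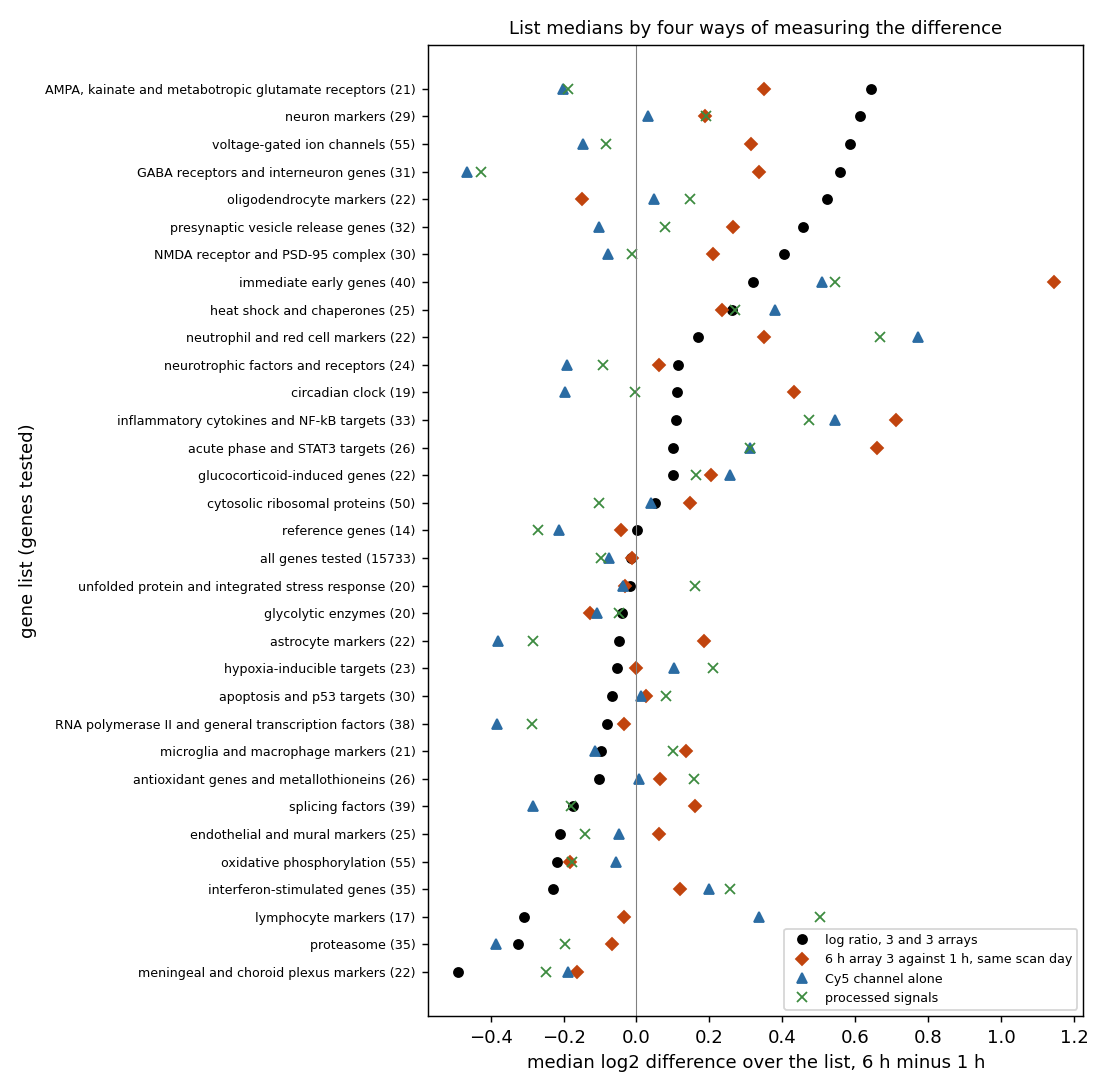
Median log2 difference, 6 h minus 1 h, of 32 gene lists and of all genes tested (rows, with the number of genes), measured in 4 ways. Circles give the log ratio over 3 and 3 arrays, diamonds 6 h array 3 against the 1 h arrays of the same scan day, triangles the Cy5 channel alone and crosses the processed signals. For immediate early genes all 4 marks lie right of 0, and for the synaptic lists the circles lie at 0.41 to 0.64 with triangles left of 0.

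Genes of protein turnover and energy metabolism had medians below 0. Proteasome subunits had a median of −0.33, with 30 of 35 below 0, 10 lower at an unadjusted p under 0.05 (against 10.1% of all genes) and none higher. PSMA1, a subunit of the 20S core, had −0.49, 0.02 and 0.36 at 6 h, against 0.61, 0.50 and 0.49 at 1 h, and its difference of −0.57 had an adjusted p of 0.21. PSMB5 (−0.32), PSMC4 (−0.21) and PSMD1 (−0.15) overlapped between the times. The list lay below 0 under every alternative, from −1.14 to −0.07, and at −0.14 without 6 h array 1, and its median on each array was −0.55, −0.02 and −0.05 at 6 h, against 0.02, −0.04 and −0.14 at 1 h. The lowest of these array medians was thus that of 6 h array 1, and without that array 9 of 35 genes lay above 0.

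Oxidative phosphorylation genes had a median of −0.22, with 41 of 55 below 0, 9 lower at an unadjusted p under 0.05 (against 10.1% of all genes) and none higher. The median was −0.07 without 1 h array 1, and −0.05 in Cy5 alone with 27 of 55 above 0. COX7B, a subunit of cytochrome oxidase, had −1.4, −1.04 and −0.56 at 6 h, against 0.00, −0.36 and −0.14 at 1 h, but its Cy5 signal alone was higher by 1.03 and its reference signal by 1.35. SDHA (0.03), UQCRC1 (−0.15) and ATP5A1 (−0.30) had adjusted p between 0.66 and 0.96. General transcription factors and RNA polymerase II subunits had a median of −0.08 over 38 genes. POLR2H, a subunit shared by the RNA polymerases, had −1.07, −0.36 and −0.50 at 6 h, against −0.12, −0.03 and 0.06 at 1 h, whereas POLR2A (0.19), TBP (−0.12), GTF2B (−0.21) and POLR2E (−0.00) overlapped. Splicing factors had a median of −0.18 over 39 genes, which turned to 0.09 without 6 h array 1 and to 0.16 with 6 h array 3 alone. SNRPG had the smallest p (−0.54), and SFRS1 (−0.11), SFRS3 (−0.01), SFRS10 (−0.22) and HNRNPA2B1 (−0.24) overlapped. Cytosolic ribosomal proteins stayed at 0.05 over 50 genes, with RPL7 at 0.69, RPL3 at 0.12 and RPS6 at 0.06. Glycolytic enzymes were at −0.04 over 20 genes, with PKM2 at 0.36, PFKM at −0.41, HK1 at −0.38, ALDOA at 0.13 and GAPDH at 0.25.

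Reference genes, often used to normalise expression, had a median of 0.00 over 14 genes. YWHAZ (−0.69) and HPRT1 (−0.38) overlapped between the times. PPIA was not well above background in Cy5 on any 1 h array. It differed by 2.12 in Cy5 alone, while its ratio differed by 0.31.

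Markers of cell types were also compared. Neuron markers were higher at 6 h in the median by 0.61, with 28 of 29 above 0 and 6 higher at an unadjusted p under 0.05 (against 5.92% of all genes). Without 6 h array 2 the median was 0.24, without 1 h array 3 it was 0.35, and with arrays scaled to equal spread −2.75. Their median was 2.71, 3.55 and 2.56 on 6 h arrays 1, 2 and 3, against 2.19, 2.21 and 1.84 on the 1 h arrays. NRGN, neurogranin of excitatory neurons, had 1.70, 2.45 and 2.00 at 6 h, against 1.32, 1.29 and 1.26 at 1 h. NEFL (0.88), NEFM (0.69), MAP2 (0.65) and STMN2 (0.60) overlapped, and in Cy5 alone the list was at 0.03. Oligodendrocyte markers had a median of 0.52 over 22 genes, and of 0.12 without 6 h array 2. NKX6-2, a transcription factor of these cells, had 0.57, 0.97 and 0.01 at 6 h, against −0.01, 0.04 and −0.14 at 1 h, where it was not well above background on any array. MBP (0.78), CNP (0.73), MOBP (0.72), MAG (0.67) and MOG (0.50) were highest on 6 h array 2 in each case. With 6 h array 3 alone the list was at −0.15.

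Astrocyte markers had a median of −0.05 over 22 genes, which turned to 0.26 without 6 h array 1. SLC1A2, the glutamate transporter GLT-1, had 2.79, 4.88 and 3.24 at 6 h, against 1.76, 2.98 and 1.80 at 1 h. Its difference was 1.46 in ratio, but −0.58 in Cy5 alone. GFAP (0.11), AQP4 (−0.24), SLC1A3 (0.17) and ALDH1L1 (−0.31) had adjusted p between 0.83 and 0.92. Microglia and macrophage markers were at −0.10 over 21 genes, with FCER1G at −0.78, CX3CR1 at 0.23, P2RY12 at 0.38, AIF1 at −0.10, CSF1R at −0.15, ITGAM at −0.23 and CD68 at −0.51. Endothelial and mural markers were at −0.21 over 25 genes, and at −0.08 without 6 h array 2. TEK, the angiopoietin receptor, had −0.75, −0.79 and −0.34 at 6 h, against 0.02, −0.28 and 0.18 at 1 h. CLDN5, the tight junction claudin of brain vessels, had 0.84, 0.87 and 1.65 at 6 h, against 0.42, 0.62 and 0.68 at 1 h, and PECAM1 (0.14), VWF (−0.36), CDH5 (−0.16), ABCB1 (−0.32), PDGFRB (0.07) and RGS5 (−0.40) overlapped. CDH5 and ABCB1 were not well above background in Cy5 on any 1 h array.

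Meningeal and choroid plexus markers had a median of −0.49, with 17 of 22 below 0, 4 lower at an unadjusted p under 0.05 (against 10.1% of all genes) and none higher, and stayed below 0 under every alternative (−0.95 to −0.16). Apart from CP, FOLR1 had −1.58, −2.07 and −1.44 at 6 h, against −0.79, −0.88 and −1.27 at 1 h, a difference of −0.71 in ratio and of 0.48 in Cy5 alone. TTR, transthyretin of the choroid plexus, had −3.98, −2.75 and −1.35 at 6 h, against −1.86, −0.04 and −5.03 at 1 h, a range at 1 h wider than the difference of −0.38. KL (−0.60), AQP1 (0.25) and PTGDS (0.27) overlapped. Of the 22 markers, 10 were well above background in Cy5 on all 6 arrays. Lymphocyte markers were at −0.31, with 15 of 17 below 0, but at −0.04 without 6 h array 2 and 0.34 in Cy5 alone. Only 3 of the 17 were well above background in Cy5 on all 6 arrays, and 5 and 4 were so on 1 h arrays 1 and 2. CD2 had −1.62, −2.26 and −0.54 at 6 h, against −0.25, −0.42 and −0.47 at 1 h, and CD3E (−0.08) and CD8A (−0.13) were close to 0.

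The same comparison was made in the ischemic right cortex of TatNR2B9c animals. No gene passed the test of the left minus the right time difference, the interaction of time with hemisphere: 0 of 15732 genes by limma (0%), with 369 at an unadjusted p under 0.05 (2.35%), 42 higher (0.267%) and 327 lower (2.08%), and a smallest adjusted p of 1.00. Over the 15732 genes the 2 time differences correlated with r = 0.73, as a description only. Right and left arrays of 1 number and time came from 1 animal by their labels, and shared a slide and a scan day. The main fit treated them as independent. With animal as a random block (correlation within animals 0.05), 0 genes passed the interaction. Immediate early genes were at 0.32 on the left and 0.07 on the right, and heat shock genes at 0.26 on the left and −0.11 on the right. Astrocyte markers were at −0.05 on the left and 0.50 on the right, and presynaptic genes at 0.46 on the left and 1.01 on the right. FOS differed by 1.18 on the left and −1.24 on the right, and PTGS2 by 2.01 on the left and 0.07 on the right. Of 40 immediate early genes and 25 heat shock genes, 0 differed between the hemispheres at an unadjusted p under 0.05 (against 2.35% of all genes).

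The 5 genes with the smallest p in that interaction all had a lower time difference on the left. SIX5 differed by −0.64 on the left and 0.02 on the right. RNF4, a ubiquitin ligase that binds SUMO chains, was at −0.13 on the left and 1.00 on the right. In left cortex MOV10, an RNA helicase, was at −0.35 and FSTL3, an activin-binding protein, at −0.01. Their right-cortex values were 0.54 and 0.81. The transcript ENSMMUT00000046148 was at −0.20 on the left and 1.05 on the right. Each had an adjusted p of 1.00.

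**Figure D5:**
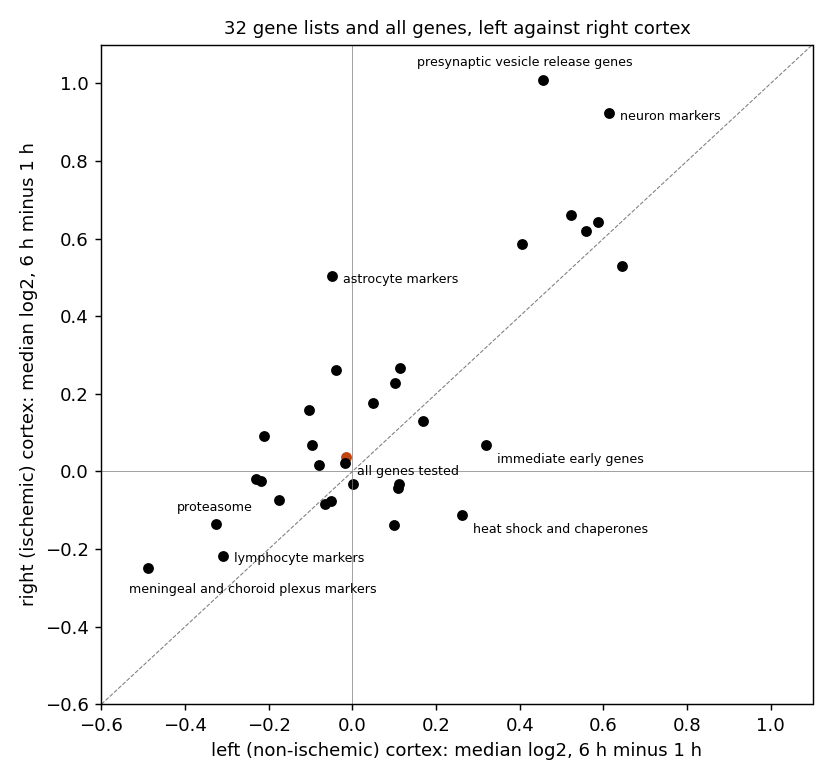
Median log2 difference, 6 h minus 1 h, of 32 gene lists and of all genes tested, in left cortex (horizontal axis) and right cortex (vertical axis) of TatNR2B9c animals. Each point is 1 list, the coloured point is all genes and the dashed line marks equal values. Neuron markers (0.61 on the left, 0.92 on the right) lie above the line, and immediate early genes (0.32 and 0.07) below it.

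The time difference of left cortex was also set against that of placebo animals. It differed in 2229 of 15733 genes by limma (14.2%), 813 higher under TatNR2B9c (5.17%) and 1416 lower (9%). Software versions and scan days differed for the TatNR2B9c arrays, the 6 h placebo arrays and the 1 h placebo arrays, so that treatment and scanning cannot be told apart. Neuron markers were higher at 6 h by a median of 0.61 under TatNR2B9c and of 2.58 under placebo, and immediate early genes by 0.32 and by 0.24. ELF5 had the smallest p, with a time difference of 0.03 under TatNR2B9c and −1.57 under placebo (interaction 1.60 ± 0.17 (SE), adjusted p = 0.000345). SLC8A2, the sodium-calcium exchanger NCX2, was at 1.16 under TatNR2B9c and 4.57 under placebo (adjusted p = 0.00345), but the interaction turned to 0.47 in Cy5 alone. The others of the 5 were PSPH (−0.76 under TatNR2B9c, −2.75 under placebo), C22orf1 (0.58 and 3.77) and PGGT1B (−0.17 and −1.28). Restricted to the 12 arrays compared, 6 genes passed, and with arrays scaled to equal spread 1 did.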

How the data were processed

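RNA of left cortex of TatNR2B9c animals at 6 h and 1 h (6 of 24 arrays) was measured on 2-colour Agilent arrays. Per the labels, cortex RNA was in Cy5 and a Universal Reference RNA in Cy3 on every array, with no dye swap. Per the file headers, the probes were placed by coordinates of rheMac2, a rhesus build, while the animals were cynomolgus macaques per the labels. The arrays here were extracted with Agilent Feature Extraction 10.7.3.1, per the file headers and the submitters' processing notes, and the placebo arrays with 9.5.3.1 and 10.5.1.1. The deposited intensities are mean spot signals and median local backgrounds per channel, per the file headers, and that software also gave processed intensities, after its own background and dye correction. The deposited log10 ratios are of processed Cy5 over Cy3, per the file headers, and the authors' series matrix holds the same ratios within 0.005. Its column medians (log10) were 0.06, 0 and 0 for 6 h arrays 1, 2 and 3, and 0, 0 and 0.036 for 1 h arrays 1, 2 and 3. The deposited flag score of a spot is 0 or 1, per the file headers.

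Background was corrected by normexp (offset 50) and ratios by loess within arrays, with control spots at weight 0. Control and non-uniform spots were dropped and spots averaged per probe. Probes had to be well above background in Cy5 on all 3 arrays of 1 or more groups (17226 of 20217). Each gene was read by its brightest probe (15733 genes, 14086 with a symbol). Names are those of the array files, where 1518 of 6259 probes named by 2 annotations carried differing names, and 2460 probes had none. limma 3.58.1 (R 4.3.3) was fitted on all 24 arrays with 8 group means (lmFit, eBayes, two-sided), with Benjamini-Hochberg adjustment over all genes. Figures were drawn with matplotlib in Python. The arrays limit the precision by their number. The limma p-values rest on the spread within all 8 groups pooled, not on that of the 6 arrays alone. With limma on only the arrays compared, 1429 genes had an unadjusted p under 0.05 for 6 h against 1 h. The smallest adjusted p was then 0.537.

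The genes named were the 12 highest and 12 lowest t values among genes with a symbol, non-overlapping groups and a Cy5 signal above background on at least 3 of 6 arrays. Also named were preset examples and the member with the smallest p of each of 32 lists, and the 5 smallest p of each interaction. Some genes stand in more than 1 list. The comparison, lists and rules were chosen with earlier results of these data known, so no list is independent evidence. Same-numbered arrays at 6 h and 1 h had deviations that correlated at 0.15, 0.18 and −0.18, and other pairs between −0.41 and 0.33. The main fit did not pair arrays by number. With 3 arrays a group these values cannot show whether a number stands for the same animal at both times. Alternatives varied background, normalisation, filter, probes, samples, weights and blocks and left out each array. Some, such as fits on only the groups compared or with replicate or animal as a block, left the differences themselves unchanged. A sign kept under those was fixed in advance, for genes and lists alike. Some genes that the rules name are not reported here.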

Additional observations from a re-analysis of the deposited data

Results flagged for a closer look

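The time difference of left cortex differed between TatNR2B9c and placebo animals in 2229 genes by the test of that difference itself, limma's interaction of time with treatment. This count lay between 472 and 4720 when single arrays were left out. Groups of 3 arrays were too small for the search for single outlying arrays.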

How the results depend on the processing

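The count of 0 genes at 6 h against 1 h was 1 with median centring in place of loess and 9 with 6 h array 3 alone at 6 h, an alternative chosen after seeing the data. Leaving out single arrays gave 0 to 747, the highest without 6 h array 3. The count at an unadjusted p under 0.05 ranged from 559 with slide as a block to 3983 without 6 h array 3. A fit with the replicate number as a block gave 0 genes for time, and 2328 for the interaction with treatment against 2229 without the block (825 higher and 1503 lower, against 813 and 1416). The interaction count was 148 with processed signals, 3671 without background subtraction, 1238 with an offset of 10, 4047 with median centring, 1 with equal spread, 140 in Cy5 alone, 147 with the series matrix, 89 with the strictest filter on dim probes and 6 with only the arrays compared. Leaving out single arrays gave 472 to 4720. The cause of these shifts was not tested. Under the strictest filter the interaction was tested in 1553 genes, against 15733.

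Signs turned for RPH3A (−0.5044 with processed signals, −0.6073 in Cy5 alone, −0.5099 with the series matrix), IDS (−0.0805, −0.8355 and −0.0925, and −1.1005 at equal spread) and PRAC (−0.0063 with processed signals and −0.0055 with the series matrix). In Cy5 alone NIT2 (0.3411), KLF15 (0.0916), ANAC (0.7716) and CNKSR3 (−0.1006) also turned, as did the interactions of SLC8A2 (0.4742) and PSPH (−0.6138). The median of 14 of 32 gene lists changed sign when 1 of the 6 arrays was left out, among them clock, glucocorticoid, cytokine, acute phase, apoptosis, antioxidant, splicing, astrocyte, and neutrophil and red cell genes, and 18 kept it.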
